A study of Mus musculus with 16 samples.

Results

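The Hippo pathway is a kinase cascade that restrains growth and regulates cell fate in many epithelia, the airway epithelium among them. Its upstream scaffolds switch on the MST kinases, which activate the LATS kinases, and LATS phosphorylation keeps the coactivators YAP and TAZ out of the nucleus. In the nucleus YAP and TAZ act through TEAD factors bound to DNA, and VGLL4 competes with them for TEAD. The regions described here are the ATAC-seq peaks that lie closest to 10 mouse genes of this pathway. The genes are the kinases *Stk3*, *Stk4*, *Lats1* and *Lats2*, the adaptors *Sav1* and *Mob1a*, the upstream regulators *Nf2* and *Wwc1*, and the nuclear members *Tead1* and *Vgll4*. A peak was taken as a member when the protein-coding transcription start site nearest to its centre, in the GENCODE basic annotation of the mouse genome (mm10), belonged to one of them. This gave 113 of the 80367 deposited peaks, spread over 8 of the 10 genes.

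ATAC-seq reads accumulate where a transposase can reach the DNA, so a peak marks accessible chromatin. Both groups came from small cell lung cancers (SCLC) in *TKO*;*Hes1* GFP/+ mice, in which adenoviral Cre delivered to the airways deletes floxed *Rb*, *p53* and *p130*, and in which GFP is read from the endogenous *Hes1* locus. The GFPhigh group holds cells with Hes1-GFP, the non-neuroendocrine (non-NE) cells, and the GFPneg group holds cells without it, the neuroendocrine (NE) cells, both sorted as CD24+ cells negative for CD45, CD31 and TER119 from the pooled tumors of each mouse. The 8 libraries formed 4 GFPhigh and GFPneg pairs from 3 mice, 1 mouse giving 2 pairs, and each library was run on 2 lanes, which makes 16 runs. The deposited tables give 1 value per peak for the whole comparison, so no value per library, no SD over mice and no library depth can be given, and the standard errors (SE) below are those of the authors' deposited fit. A peak is called opened when it is listed as more accessible in GFPhigh cells and closed when it is listed as less accessible there. Each listed peak has an adjusted p under 0.001 and changed by more than 1 on the log2 scale. Peaks short of either limit were not analysed here, so a gene with no listed peak may still have accessible chromatin that did not change past the limits. In sorted populations, more accessible DNA per cell and a larger share of cells with the site accessible cannot be told apart.

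Of the lists of cell type markers, the 7 NE genes held 11 opened and 58 closed peaks and the 5 non-NE genes held 59 opened and 20 closed. Among the NE genes *Insm1* had 28 of the closed peaks, and *Chga* went the other way, with 8 opened and 6 closed. *Syp* had no listed peak. Genes of other cell types were also close to listed peaks. Of leukocyte genes, *Ptprc*, which codes for CD45, had 11 opened and 5 closed peaks, *Cd68* and *Cd3e* had 1 opened peak each, and *Itgam* had none. The 4 endothelial genes held 12 opened and 39 closed peaks, of which *Cdh5* had 2 and 23. The 5 fibroblast genes held 10 and 13, of which *Col1a1* had 7 and 0, with none at *Pdgfrb*. The part of these other cell types in the results was not tested.

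Most peaks of the Hippo genes were more accessible in the non-NE cells. Of the 113 peaks, 88 were opened and 25 closed, so that 77.9% were opened (Wilson 95% interval 69.4 to 84.5, for counting error only), beside 50.8% of all 80367 listed peaks. The nuclear members held 47 opened and 7 closed peaks, the core kinases 14 and 4, the upstream members 24 and 11, and the adaptors 3 and 3. *Vgll4*, *Wwc1* and *Tead1* together account for most of these peaks. Without these 3 genes 67.9% of the 28 peaks left were opened. Peaks of 1 gene come from the same libraries and are not replicates of each other.

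**Figure D1:**
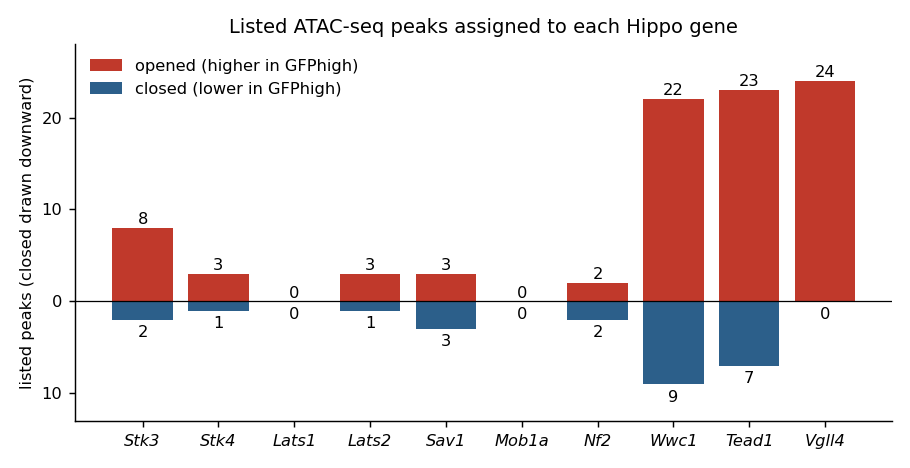
Number of listed peaks assigned to each of the 10 Hippo genes, with opened peaks drawn upward in red and closed peaks downward in blue. Vgll4 has 24 opened and 0 closed peaks, Tead1 23 and 7 and Wwc1 22 and 9, while Lats1 and Mob1a have none.

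The opened member peaks lay more often in introns and farther from start sites than all opened peaks. Introns held 80.7% of the opened member peaks against 43.6% of all opened peaks, and promoters, within 1 kb of a start site of any gene, held 5.68% against 22.3%. The median distance to the start site was 36.3 kb for opened member peaks and 17.5 kb for all opened peaks. The closed member peaks went the other way in distance, with a median of 27 kb beside 42.4 kb for all closed peaks, and 3 of the 25 (12%) were promoter peaks, beside 9.68%. In width and signal the opened member peaks were close to the rest. Their median width was 288 bp against 300, and their median signal 36.8 against 40.7 normalized reads per peak, the mean over all libraries after the authors' size-factor scaling.

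The opened member peaks had a median log2 fold change (GFPhigh over GFPneg) of 3.35, with quartiles at 2.17 and 4.36, beside 2.92 for all opened peaks. The closed ones had a median of -2.37, with quartiles at -2.60 and -2.12, beside -2.66 for all closed peaks. Of the opened member peaks, 26 of 88 (29.5%) changed by more than 16-fold, beside 23.3% of all opened peaks, and 0 of the 25 closed ones did, beside 2.62%. The largest changes sat in peaks with few reads. Among the 21 opened member peaks with more than 100 reads the median log2 fold change was 2.01, and 1 closed member peak had that many. Nearest to the limits of the lists were a *Wwc1* peak with a log2 fold change of 1.09 ± 0.24 (SE) and a *Stk3* peak with an adjusted p of 0.000959 in the authors' deposited table.

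**Figure D2:**
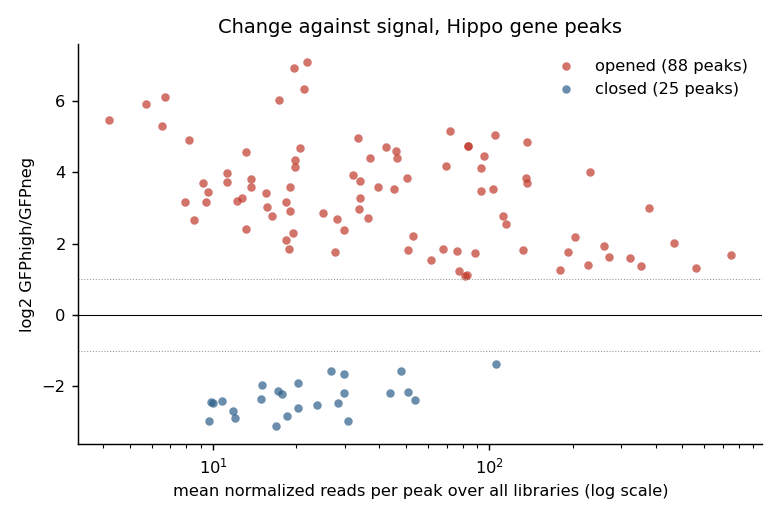
Log2 fold change of each Hippo gene peak (GFPhigh over GFPneg) against its mean normalized reads over all libraries on a log scale, with the limits of the lists at 1 and -1 dotted. Opened peaks (red, 88) reach 752 reads and closed peaks (blue, 25) reach 106, and the largest fold changes belong to peaks with few reads.

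**Figure D3:**
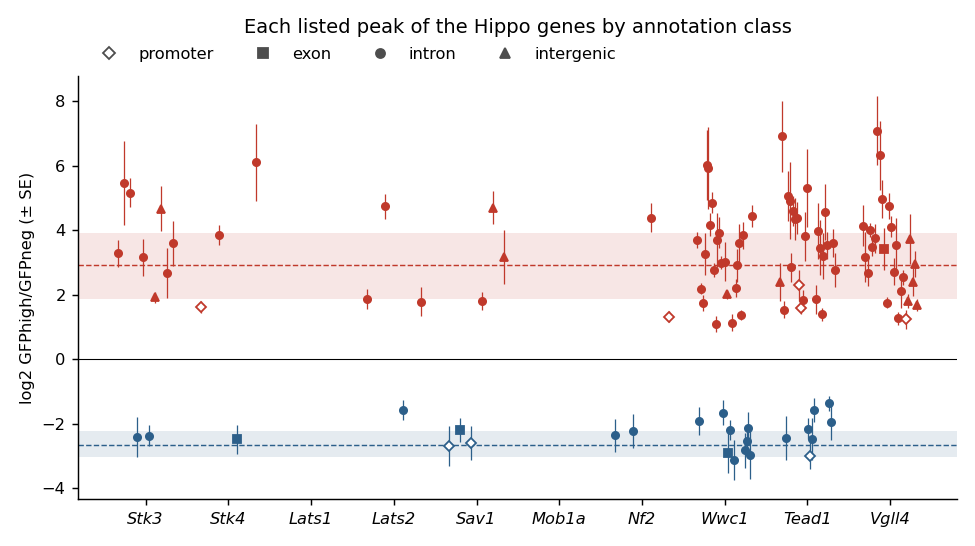
Log2 fold change ± SE of each of the 113 peaks, by gene and in order of position, with marker shapes for the annotation class. Dashed lines and bands give the median and quartiles of all opened (2.92) and all closed (-2.66) listed peaks, and the open diamonds near promoters lie below the opened median in all 5 opened cases.

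Peaks at a gene's own start tie a change to that gene most directly, so their sequences are shown first. Among the 113 assigned peaks, the basic annotation gives 6 within 1 kb of the member's own start, 5 opened and 1 closed, and the comprehensive annotation, with more transcripts, gives 9, 7 opened and 2 closed. Opened peaks near *Lats2* and *Stk4* starts that the rule gives to other genes, described with *Lats2* and *Stk4*, are not in these counts. Of all 10358 listed peaks within 1 kb of a protein-coding start in the basic annotation 74.3% were opened, so these counts are near that background. RefSeq promoter windows (GRCm38.p6, the same assembly as mm10, 250 bases before to 50 after a start) matched 8 of the 10 genes with 10 windows, and 4 windows overlapped a listed peak, all 4 opened. Each is given 5′ to 3′ on the gene's strand, with the bases from the start onward in capitals. The window of *Vgll4* is chr6:114969154-114969453 (minus strand), that of *Nf2* chr11:4849495-4849794 (minus), that of *Lats2* chr14:57746074-57746373 (minus) and that of *Stk4* chr2:164073888-164074187 (plus).
Vgll4: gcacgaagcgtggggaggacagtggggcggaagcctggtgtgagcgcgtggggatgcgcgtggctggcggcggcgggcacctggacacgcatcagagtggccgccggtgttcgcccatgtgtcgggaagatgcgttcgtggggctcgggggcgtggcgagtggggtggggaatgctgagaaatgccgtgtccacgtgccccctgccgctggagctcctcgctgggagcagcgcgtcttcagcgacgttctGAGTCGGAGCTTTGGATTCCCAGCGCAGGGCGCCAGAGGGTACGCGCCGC
Nf2: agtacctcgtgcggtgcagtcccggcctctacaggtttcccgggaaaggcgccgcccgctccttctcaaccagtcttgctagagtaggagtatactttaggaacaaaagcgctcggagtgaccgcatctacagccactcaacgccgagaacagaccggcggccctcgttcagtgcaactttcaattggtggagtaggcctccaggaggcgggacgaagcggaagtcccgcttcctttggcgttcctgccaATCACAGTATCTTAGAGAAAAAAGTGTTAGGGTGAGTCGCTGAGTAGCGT
Lats2: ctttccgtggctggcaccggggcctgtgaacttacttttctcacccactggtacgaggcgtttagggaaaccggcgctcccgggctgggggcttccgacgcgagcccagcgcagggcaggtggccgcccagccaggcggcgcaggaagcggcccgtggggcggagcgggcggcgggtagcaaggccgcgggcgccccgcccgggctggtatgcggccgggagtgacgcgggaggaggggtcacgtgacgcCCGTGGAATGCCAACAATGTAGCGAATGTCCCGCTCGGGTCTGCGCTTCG
Stk4: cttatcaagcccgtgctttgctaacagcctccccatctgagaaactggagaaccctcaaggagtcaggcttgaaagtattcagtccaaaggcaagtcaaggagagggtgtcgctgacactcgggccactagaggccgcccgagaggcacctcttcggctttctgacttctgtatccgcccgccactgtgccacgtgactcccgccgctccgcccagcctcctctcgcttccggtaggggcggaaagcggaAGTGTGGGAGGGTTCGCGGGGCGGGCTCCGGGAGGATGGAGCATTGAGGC

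For *Tead1*, which has starts with opposite changes, the whole closed peak at an internal start (chr7:112741786-112742077, plus strand, mm10) is given, again with the bases from the annotated start onward in capitals.
Tead1 internal start: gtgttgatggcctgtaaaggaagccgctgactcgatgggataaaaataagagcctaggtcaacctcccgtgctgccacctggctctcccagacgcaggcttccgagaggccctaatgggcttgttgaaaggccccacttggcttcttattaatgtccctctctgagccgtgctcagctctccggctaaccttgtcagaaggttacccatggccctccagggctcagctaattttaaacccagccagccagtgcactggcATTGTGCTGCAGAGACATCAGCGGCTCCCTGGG

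These windows differ in composition. The GC content was 69.7% for *Vgll4*, 71.7% for *Lats2*, 61.7% for *Stk4* and 56.3% for *Nf2*, beside a median of 52.7% over 32851 RefSeq windows. The closed peak at the internal *Tead1* start had 56.2% GC and 8 CG dinucleotides. The core of the TEAD motif, CATTCC on either strand, matched 1 time each in the windows of *Vgll4* and *Lats2*. It did not occur in the windows of *Stk4* and *Nf2* or in the internal *Tead1* peak. The windows of *Mob1a* and *Sav1*, which overlap no listed peak, held 1 match each, so 4 of the 10 member windows held the core. Of the 32851 RefSeq windows, which do not cover every chromosome, 14.7% hold it. A match is a description of the letters and not a bound site.

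*Stk3* and *Stk4* code for MST2 and MST1, the kinases at the top of the core cascade. *Stk3* had 8 opened and 2 closed peaks, none within 1 kb of its starts. Its peak with the most reads lay 4.8 kb upstream of the first start (chr15:35183447-35183965, 259 reads) and was opened by 1.93 ± 0.17 on the log2 scale, 3.80-fold. Farther upstream, in the long noncoding RNA gene *Gm33497*, a pair of peaks near 55.1 and 55.6 kb were opened by 2.67 ± 0.77 and 3.59 ± 0.69. Inside the gene the opened signal was strongest about 158 kb from the first start. The peak there with 72.3 reads (chr15:35020759-35021125) had a log2 fold change of 5.16 ± 0.45, and its neighbor with 4.21 reads (chr15:35020575-35020647) had 5.46 ± 1.30, the largest of the gene. Both closed peaks of *Stk3* lay inside the gene. One lay 1704 bp upstream of an internal start (chr15:35157385-35157634, 53.7 reads, -2.37 ± 0.33), and the other lay 125.6 kb from the first start (chr15:35053233-35053414, 10.8 reads, -2.41 ± 0.61).

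*Stk4* had 3 opened and 1 closed peak. Its promoter peak (chr2:164073940-164074433, 272 reads) was centered 49 bp from the start and was opened by 1.63 ± 0.18, 3.10-fold, with an adjusted p of 3.23e-19 in the authors' deposited table. An intron peak 9.9 kb into the gene (chr2:164083727-164084426, 136 reads) had a larger change of 3.85 ± 0.31, 14.4-fold. The largest log2 value of the gene, 6.11 ± 1.19, belonged to an intron peak with 6.68 reads (chr2:164106695-164106817). The closed peak (chr2:164099526-164099954, 28.4 reads, -2.48 ± 0.45) lay in an exon, and the comprehensive GENCODE annotation places a further *Stk4* start 20 bp from its center. A further opened peak inside the *Stk4* record (chr2:164070565-164071414, 379 reads, 1.65 ± 0.20) is nearest to a start of *Tomm34* and is not counted as a member.

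*Lats1* and *Lats2* code for the kinases that phosphorylate YAP and TAZ. No listed peak was assigned to *Lats1*, and none lay inside its record or within 10 kb of it. *Lats2* had 3 opened and 1 closed peak, all in introns. The strongest change was 4.74 ± 0.39, 26.8-fold, in a peak of 83.6 reads (chr14:57705044-57705423), also the peak with the most reads. The other opened peaks had 1.86 ± 0.31 (68.0 reads) and 1.78 ± 0.45 (27.5 reads). Between them along the gene lay the closed peak (chr14:57709112-57709540, 47.8 reads, -1.57 ± 0.31).

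The promoter of *Lats2* is left out of these counts by the annotation. A wide opened peak (chr14:57745408-57746471, 326 reads) covers the first *Lats2* start and the *Lats2* window shown above, with a log2 fold change of 2.44 ± 0.22 and an adjusted p of 4.48e-27 in the authors' deposited table. Its center lies 163 bp from a start of *Gm49361*, a protein-coding record that runs through *Lats2*, and 183 bp from the first start of *Lats2*, so the nearest-start rule gives it to *Gm49361*. A smaller neighbor (chr14:57744673-57744772, 19.0 reads, 6.17 ± 1.08) goes the same way. With that record left out, a choice made after seeing the data, *Lats2* had 6 peaks and the 10 genes 115, of which 78.3% were opened.

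*Sav1* and *Mob1a* code for adaptors, SAV1 for the MST kinases and MOB1A for the LATS kinases. *Mob1a* had no assigned peak and none inside its record. The nearest was a closed peak 9.9 kb upstream (chr6:83316051-83316179, 24 reads, -1.61 ± 0.39) that is assigned to *Mthfd2*. Genes without a listed peak are common, since 66.6% of the 21924 protein-coding genes had one.

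*Sav1* was split by position. Its 3 opened peaks lay near or upstream of the 5′ end, 1 in the first part of the gene 1268 bp from the start (chr12:69985592-69985875, 76.3 reads, 1.80 ± 0.28) and a pair between genes 11.4 and 11.7 kb upstream. The stronger of that pair (chr12:69998252-69998613, 42.2 reads) had a log2 fold change of 4.70 ± 0.52. Its 3 closed peaks all lay farther into the gene, between 6.4 and 15.8 kb from the start, with values from -2.69 to -2.20. The largest of these changes, -2.69 ± 0.62, was in a peak of 11.8 reads (chr12:69971180-69971316). The annotation classes 2 of the closed peaks as promoter because pseudogene starts lie within 1 kb, and no listed peak lay within 1 kb of the start of *Sav1*.

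*Nf2* codes for merlin, a membrane-linked scaffold that helps to activate LATS, and *Wwc1* codes for KIBRA, which acts with merlin. *Nf2* had 2 opened and 2 closed peaks. Its promoter peak (chr11:4849249-4849861, 560 reads), centered 19 bp from the start, was opened by 1.32 ± 0.17, 2.50-fold. An intron peak 7.8 kb from a start (chr11:4840973-4841422, 46.3 reads) was opened by 4.39 ± 0.45, 21.0-fold. The closed peaks lay deeper in the gene and had 14.9 and 17.7 reads. The one with the larger change was chr11:4800749-4800932, at -2.36 ± 0.52.

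*Wwc1* had 31 peaks, 22 opened and 9 closed, and 0.976% of protein-coding genes had as many or more. None lay within 1 kb of its start. The peak with the most reads lay 20.6 kb upstream between genes (chr11:36000624-36001633, 467 reads, 2.01 ± 0.14), and the next lay in an intron 9.3 kb into the gene (chr11:35970744-35971801, 377 reads, 2.99 ± 0.20). These were wide peaks, of 1010 and 1058 bp. The largest opened change was 6.02 ± 1.09 in a peak of 17.3 reads (chr11:35938962-35939184), and the largest closed change was -3.11 ± 0.62 in a peak of 16.9 reads (chr11:36032319-36032509).

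The direction at *Wwc1* differed along the chromosome. Inside the gene, 14 opened and 2 closed peaks were assigned to it. The 14 peaks in the body of the upstream neighbor *Tenm2* were split, 7 opened and 7 closed. The far part of the *Wwc1* gene is not covered by its own counts, because its peaks are nearer to the start of *Rars*. All 7 listed peaks inside the gene beyond its last opened peak, from 91.6 to 142.0 kb downstream of the start, were closed. The strongest of them (chr11:35888739-35889193, 75.9 reads) changed by -3.71 ± 0.33. Counted over the gene record whatever the nearest start, *Wwc1* therefore held 14 opened and 9 closed peaks. The last opened peak lay 60.4 kb from the start.

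The same count over the gene record ended the majority of opened peaks at *Stk3*. Its record held 5 opened and 6 closed peaks (45.5% opened) once the 4 closed and 1 opened peaks nearer to *Kcns2* were included, all of them 212.9 to 291.8 kb from the first start. *Sav1* held 1 opened and 3 closed peaks over its record and *Nf2* 1 and 2, so closed peaks were the more numerous there too. Over the 10 gene records together 57 of 86 peaks (66.3%) were opened.

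*Tead1* codes for a TEAD factor that binds DNA and recruits YAP and TAZ. It had 30 peaks, 23 opened and 7 closed. The wide promoter peak at its first start (chr7:112678860-112680153, 324 reads) had the most reads and was opened by 1.60 ± 0.19, 3.03-fold, with an adjusted p of 1.6e-15 in the authors' deposited table. A small peak 715 bp upstream (chr7:112678533-112678672, 19.4 reads) was opened by 2.29 ± 0.47. At an internal start 62.7 kb downstream the direction was opposite. The peak there (chr7:112741786-112742077, 30.7 reads, the closed sequence shown above) had the largest closed change of the gene, -2.98 ± 0.43, 7.90-fold lower in GFPhigh cells. The closed peaks on either side, 57.1 and 65.7 kb from the first start, had -2.15 ± 0.32 and -2.47 ± 0.66, and one more at 81.6 kb, 1441 bp from another internal start, had -1.58 ± 0.37. The stretch from 57.1 to 81.6 kb thus held 4 closed peaks and no opened one, with opened peaks on both sides of it.

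Upstream of *Tead1*, 10 of the 11 listed peaks were opened, and 10 of the 11 lay in the body of the noncoding RNA gene *2310014F06Rik*, which runs antisense to *Tead1* from a start inside the same promoter peak. The largest log2 change of the gene, 6.92 ± 1.10, was in a peak of 19.6 reads 63.9 kb upstream (chr7:112615245-112615575). A peak of 105 reads 44.5 kb upstream (chr7:112634588-112635121) had 5.06 ± 0.77. The closed peak of this stretch (chr7:112622889-112623035) had 9.83 reads and -2.45 ± 0.68. Deeper in the gene, past 81.6 kb, most of the peaks assigned to *Tead1* were opened. An opened peak 109.2 kb from the first start had 227 reads and a log2 fold change of 1.39 ± 0.20. The closed ones of this part lay at 147.1 kb (106 reads, -1.36 ± 0.23) and 147.6 kb (15.0 reads, -1.95 ± 0.54). A further closed peak inside the record, at 206.4 kb (11.6 reads, -2.57 ± 0.64), is nearest to a start of *Rassf10*.

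*Vgll4* codes for a cofactor that binds TEAD and opposes YAP. All 24 of its peaks were opened. Of the 652 genes with at least 20 listed peaks, 10 had opened peaks alone, and 127 had at least 70% opened. The peak with the most reads of all 113 (chr6:114968675-114970166, 752 reads) was opened by 1.68 ± 0.18, 3.20-fold. The basic annotation has 1 start for *Vgll4* and places this peak 47.6 kb upstream of it, but the RefSeq window shown above lies inside the peak and the comprehensive annotation has a *Vgll4* start 241 bp from its center. The peak at the basic start itself was weaker (chr6:114921759-114922018, 77.7 reads, 1.24 ± 0.29). Another peak near a start of the comprehensive annotation, 216 bp from it (chr6:114875030-114875615, 193 reads), was opened by 1.76 ± 0.17.

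The largest log2 change among the 113 peaks, 7.09 ± 1.08, was in a *Vgll4* peak of 21.8 reads (chr6:114834584-114834766). It is 1 of 10 *Vgll4* peaks that lie beyond the 3′ end, in the body of the autophagy gene *Atg7*, which runs toward *Vgll4* from the other side. Among these the peak with the most reads (chr6:114819896-114820563, 232 reads) was opened 16-fold, by 4.00 ± 0.22. The other 14 lay inside the record of *Vgll4*, which held no closed peak.

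**Figure D4:**
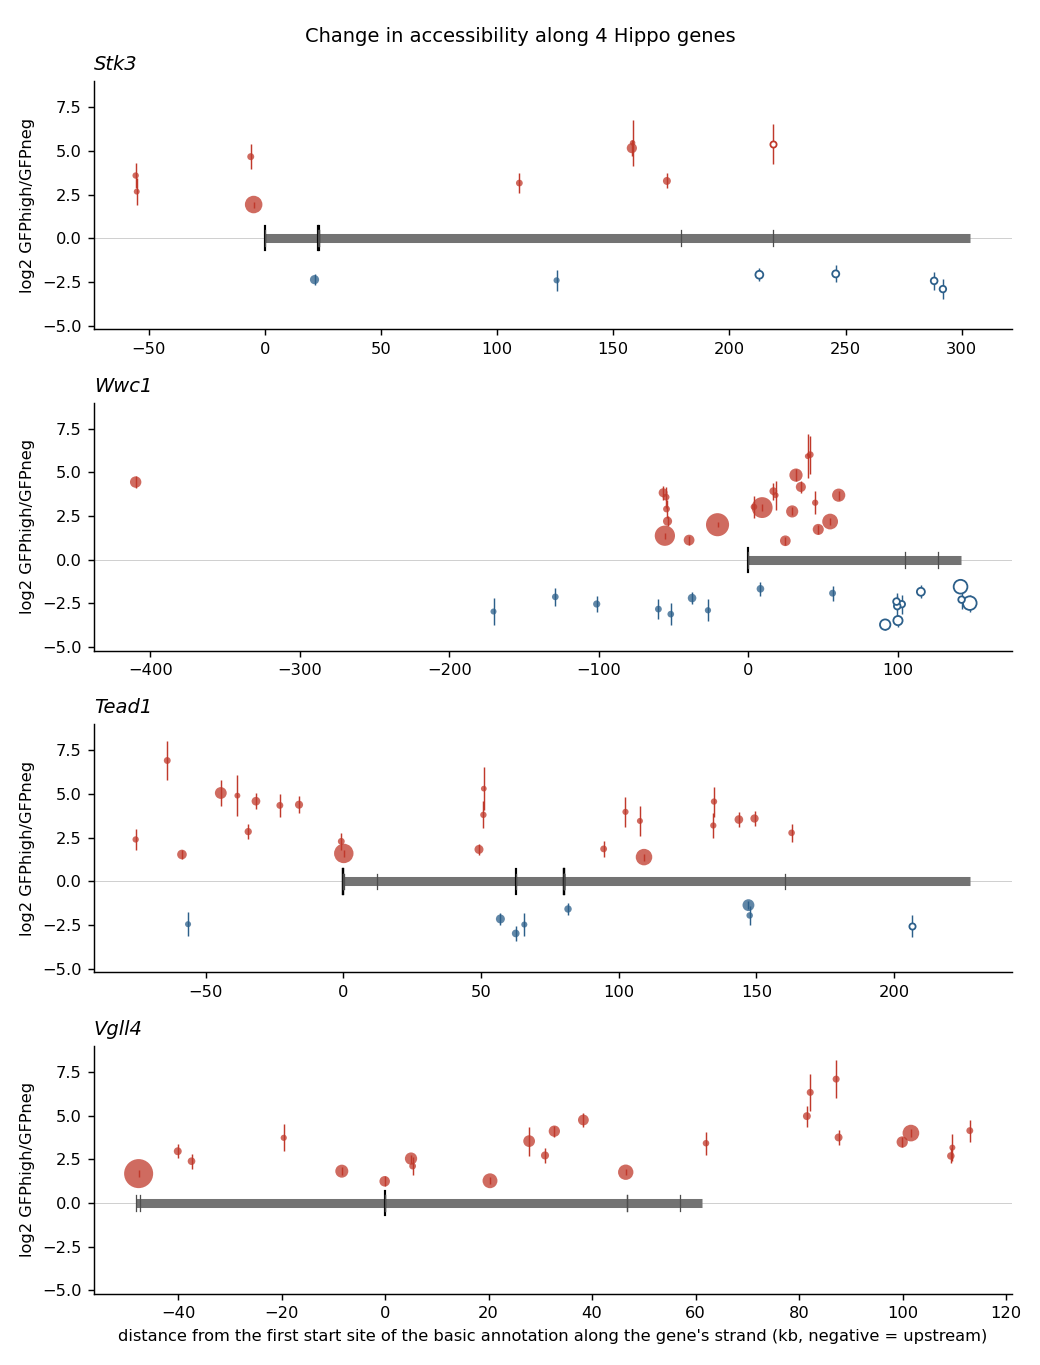
Log2 fold change ± SE of listed peaks against distance from the first start of the basic annotation, for Stk3, Wwc1, Tead1 and Vgll4, with point area growing with reads, opened peaks in red and closed in blue. Filled points are assigned to the gene, open points lie in or within 10 kb of it but are nearest to another gene's start, the gray bar is the gene record, and long and short ticks are starts of the basic and the comprehensive annotation. Closed peaks gather in the far part of Wwc1 and Stk3 and around the internal starts of Tead1, and Vgll4 has none.

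Nearby peaks assigned to other genes did not all share the direction of the member. They were counted within 1 Mb of each gene record and include peaks inside the record that are nearest to another gene's start. Such inside peaks lay in *Stk3*, *Stk4*, *Lats2*, *Wwc1* and *Tead1*, and in *Wwc1* they were the 7 closed peaks of its far part. Of all peaks counted this way, 52.9% were opened around *Vgll4* (55 of 104), 34.0% around *Wwc1* (16 of 47) and 35.6% around *Stk3* (21 of 59). Around 4 members the share was close to that of their own peaks: it was 77.6% around *Tead1* (76.7% of its own), 76.9% around *Stk4* (75% of its own), 78% around *Lats2* (75% of its own) and 51% around *Sav1* (50% of its own). Around *Nf2* it was 75.6%, beside 2 of its own 4. Around the genes without a listed peak it was 18.2% for *Lats1* and 63% for *Mob1a*.

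Sites for TEAD were searched because the pathway ends there. The complete TEAD strings, 4 consensus strings from the motif list of the study, matched the central 200 bp of 1 of the 88 opened member peaks (1.14%, with a Wilson interval from 0.201 to 6.16). They matched 0 of the 25 closed member peaks, which allows up to 13.3% by the same interval. The shares were 3.15% over all opened and 0.460% over all closed peaks. Over the whole peak 3 opened member peaks matched (3.41%, beside 4.29% of all opened peaks), and all 3 were peaks of *Wwc1*. Their sites are given 5′ to 3′ on the strand that carries CATTCC, with 25 bases on either side and the matched string in capitals.
Wwc1 intron, 60.4 kb into the gene (chr11:35919996-35920055, plus strand): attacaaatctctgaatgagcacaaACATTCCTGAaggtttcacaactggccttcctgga
Wwc1 intron, 16.7 kb into the gene (chr11:35963668-35963727, minus strand): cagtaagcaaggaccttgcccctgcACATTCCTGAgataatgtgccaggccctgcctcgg
Wwc1 upstream, 409.9 kb, in Tenm2 (chr11:36390502-36390562, minus strand): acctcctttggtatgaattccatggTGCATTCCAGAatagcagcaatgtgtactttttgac

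The peaks that hold these sites had 137, 32.2 and 95.7 reads and were opened by 3.70 ± 0.26, 3.93 ± 0.49 and 4.45 ± 0.34. The first of them lies 53 bp from the center of its peak, and the other 2 lie outside the central 200 bp or at its edge, 98 and 125 bp from the center. The site farthest upstream lies in an intron of *Tenm2*, and no other *Wwc1* peak is as far from its start. The shorter core CATTCC occurred in 28 of the 88 opened member peaks (31.8%, beside 25.4% of all opened peaks) and in 2 of the 25 closed ones (8%, beside 12%). By gene, 13 of 22 opened *Wwc1* peaks, 8 of 23 of *Tead1*, 3 of 8 of *Stk3*, 3 of 24 of *Vgll4* and 1 of 3 of *Lats2* held it. *Wwc1* thus had the largest share and *Vgll4* a low one, and the wide *Vgll4* promoter peak alone held 4 matches.

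The other motif families were counted in the same central windows. FOX strings matched 4 opened member peaks (4.55%, beside 7.54% of all opened peaks), NKX2 strings 7 (7.95%, beside 12.9%), NFI strings 2 (2.27%, beside 4.93%), AP-1 strings 2 (2.27%, beside 3.29%) and RBPJ strings 0 (beside 0.825%). Of the closed member peaks, 3 held an AP-1 string in this window (12%, beside 10.6% of all closed peaks). Over the whole peak 2 closed member peaks held one (8%, beside 12%), so the order turned. Among the opened peaks the order over the whole peak turned for 2 families. NKX2 strings were in 18 opened member peaks (20.5%, beside 18.3% of all opened peaks) and NFI strings in 8 (9.09%, beside 7.25%). No difference was tested.

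The other pathway genes were counted the same way. All 31 genes of the list had a listed peak, in total 173 opened and 76 closed (69.5% opened, beside 50.8% of all listed peaks), with more opened than closed in 20 genes, more closed in 8 and equal numbers in 3. Near their own starts 38 peaks were opened and 4 closed, beside the 74.3% opened over all listed peaks near protein-coding starts. *Yap1*, which codes for the coactivator YAP, had 3 opened and 0 closed peaks, and *Wwtr1*, which codes for TAZ, had 11 and 0. The 5 genes with the most peaks did not all point one way. *Fat4*, an upstream cadherin, had 4 opened and 19 closed peaks, whereas *Ptpn14*, a phosphatase that binds YAP, had 16 and 4. *Wwc2*, the paralog of *Wwc1*, had 16 and 3, *Amotl2*, an angiomotin that binds YAP, had 17 and 0, and *Frmd6*, an upstream scaffold, had 13 and 3.

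**Figure D5:**
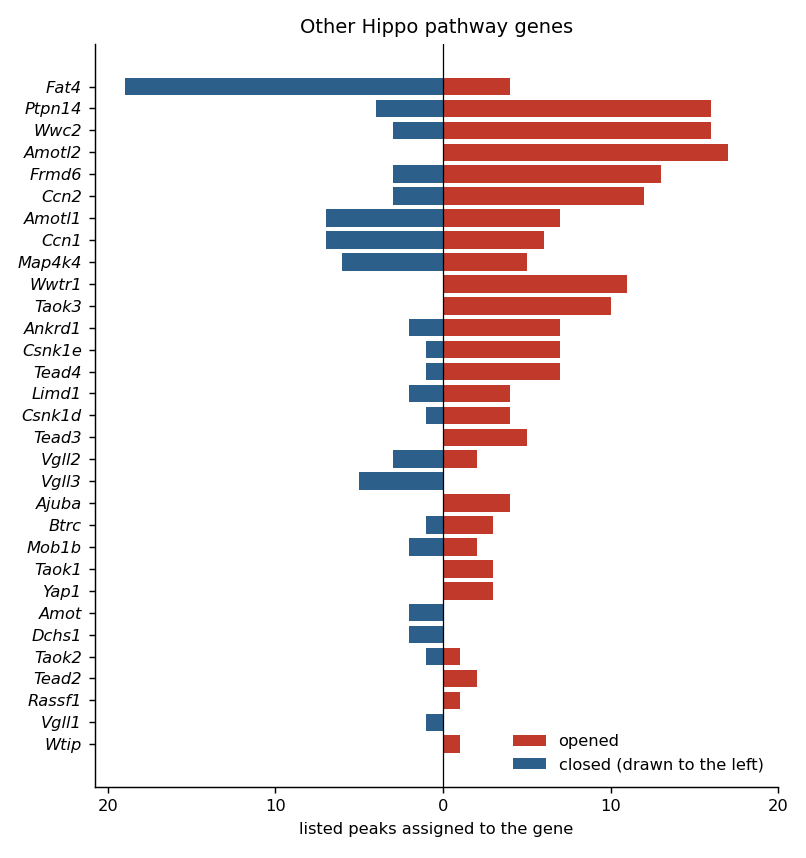
Listed peaks assigned to each of 31 other Hippo pathway genes, with opened peaks drawn to the right in red and closed peaks to the left in blue. Fat4 stands apart with 19 closed and 4 opened peaks, while Amotl2 (17) and Wwtr1 (11) have opened peaks alone.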

How the data were processed

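The members and all gene lists were chosen with earlier results of these data known. Per the submitters' processing notes and the study's methods, the authors aligned reads with Bowtie2 2.3.4.1 to mm10, removed duplicates, called peaks with MACS2, merged the peaks of all samples, counted reads per peak and fitted GFPhigh against GFPneg with DESeq2 1.28.1. How the authors treated pairs, technical repeats and lanes in DESeq2 is not given in the sources used here. The deposited signal per peak is the mean read count over all libraries after the authors' scaling. The deposited log2 fold changes, their standard errors and the p-values come from the Wald test of the authors' fit, adjusted by the Benjamini-Hochberg method, and the deposited peaks are those with adjusted p under 0.001 and a log2 change over 1 in size. They were copied and named as such, since no value per library could be refitted, and no test was added. The library depth is unknown.

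Peaks were placed by their centers on GENCODE M21 basic start sites, by the nearest protein-coding one (3 of 80367 peaks had a tie), with promoters within 1 kb of any start, then exon, intron and intergenic. The authors' motif consensus strings were searched exactly on both strands in the central 200 bp, which reaches past shorter peaks, and in the whole peak. Of each member its promoter peaks, its opened and closed peak with the largest change and the peak with the most reads are named, and other peaks were named after their values were seen. Python 3.11.15 with pandas 2.3.3 was used, and the functions were tested on simulated positions. Alternatives changed the limits, the assignment and the start sites. Of the marker lists and the sequences read, 1 gene and 1 sequence were left out and are not reported here.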

Additional observations from a re-analysis of the deposited data

How the results depend on the processing

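The direction of the result, more opened than closed peaks, held under every setting tried. The share over all listed peaks moved with the setting too. With a log2 change over 2 the members had 78.2% beside 46.9%, and with adjusted p under 1e-05 84.5% beside 54.4%. With peaks within 100 bp merged it was 77.6% beside 50.4%, and with a start at most 100 kb away 79.2% beside 55.7%. No matching share over all genes was computed for the count over gene records. The opened share moved outside the interval of the main value (77.9%) when peaks inside the gene records and 10 kb around them were counted whatever the nearest start (65.3% of 95 peaks). Under settings chosen after seeing the data it was 67.9% without *Vgll4*, *Wwc1* and *Tead1* (28 peaks) and 92.7% over the 41 peaks with 50 or more reads, where 64.4% of all listed peaks were opened. Peaks numbered 69 with start sites of every gene type and 70 inside the members' own records (chosen after seeing the data). Counts per gene depended on the start sites. With 1 start per gene *Lats2* went from 4 peaks to 0 and *Stk4* from 4 to 1, and with start sites of every gene type *Sav1* went from 6 to 1, *Lats2* from 4 to 1, *Wwc1* from 31 to 16, *Vgll4* from 24 to 15 and *Tead1* from 30 to 20. Promoter peaks rose from 8 to 15 with a 3 kb limit. The TEAD share rose from 1.14% to 22.7% with the 6-base core, a shorter string by construction, which 18.2% of all opened peaks held in the same window. No paired analysis was possible because the files hold 1 value per peak for the whole comparison, and for the same reason no replicate could be left out and no depth is known.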

Other observations

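A few member peaks had a larger standard error than others with as many reads. Of the 8 member peaks with 90 to 120 reads, the *Vgll4* peak at chr6:114893795-114894170 (103 reads, log2 fold change 3.54 ± 0.83) and the *Tead1* peak at chr7:112634588-112635121 (105 reads, 5.06 ± 0.77) stood above 0.7, and the others lay between 0.23 and 0.34. Among all listed peaks with as many reads the median standard error was 0.26, and 0.568% had one of 0.7 or more. Values per library would be needed to say where the spread comes from and were not analysed here.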
